A study of Mus musculus with 6 samples.

Results

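The genes examined here are 38 genes of the leukocyte and myeloid lineages, out of 35968 genes represented in the deposited files. They were taken as a list of gene names, ordered by role into transcription factors (9 genes), receptors and surface or membrane antigens (10), signalling adaptors, kinases and phosphatases (11), cytoskeleton and adhesion (6) and granule proteins (2). Each gene's value is the sum over its transcripts. RNA was sequenced from MS-5 cells cultured alone (3 libraries, MO1 to MO3) and from MS-5 cells that had shared a culture with SKM-1 cells for a day (24 hr, 3 libraries, MC1 to MC3), which asks what differs in stromal RNA after contact with leukaemic cells. MS-5 is a mouse stromal line that can maintain haematopoiesis in culture, and SKM-1 is a human acute myeloid leukaemia (AML) line. Both groups were grown in RPMI medium with serum, and co-cultures held AML and stromal cells at a ratio of 4 to 1, with 750000 AML cells in each ml on a confluent stromal layer. According to the methods, a PBS wash and mild trypsin were used to take off attached leukaemic cells ahead of collecting the stroma. Each group is 1 cell line, and nothing in the labels says whether the 3 libraries of a group came from separate cultures, so p-values measure the spread between these libraries only.

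Leukocyte identity is set by transcription factors such as PU.1 (Spi1), Ikaros (Ikzf1), Irf8 and the C/EBP family, which act in different combinations in progenitors, granulocytes, monocytes and lymphocytes. Below them stand surface molecules such as CD45 (Ptprc) and the growth factor receptors, the kinases, phosphatases and adaptors that carry receptor signals, and haematopoietic forms of actin-binding proteins. Stromal lines of the marrow do not belong to these lineages, and SKM-1 is a myeloid line, but the reads were matched to mouse transcripts only. A read of human RNA could therefore be counted only where it resembles a mouse transcript. How many of the counts came from human RNA was not tested, and no library of SKM-1 cells alone was analysed here.

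Estimated counts per library totalled 23978881 to 27182453 in MS-5 only against 26258451 to 35694987 in co-culture. MO2 and MC3 stood apart from the others. Of their counts, 6.07% and 5.92% lay on mitochondrial genes against 10.6% to 13.2% elsewhere, and 65170 and 66456 transcripts had a count against 51533 to 57350. The stromal markers were present in every library. Their 15 genes summed to 8909 to 10830 CPM (counts scaled to a common library total, with TMM) in MS-5 only, and 11170 to 12390 CPM in co-culture, although Dcn, Lum and Fap, 3 genes often used to mark fibroblastic stroma, had no more than 2 counts in any library.

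Most of the 38 genes were nearly silent in MS-5 cells alone and had counts in all co-culture libraries. The average level in MS-5 only was below 1 CPM for 27 genes, and 19 of these had all 3 co-culture libraries above the highest MS-5 only library. Together these 27 genes held 2.52, 5.79 and 2.13 CPM in MO1, MO2 and MO3, but 53.6, 325.0 and 62.9 CPM in MC1, MC2 and MC3. The other 11 genes summed to 179.1, 186.3 and 215.3 CPM without SKM-1 and to 240.3, 376.5 and 223.8 CPM in co-culture, so that their groups did not overlap but lay far closer. In bulk RNA, fewer cells of a type and less RNA per cell cannot be told apart.

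The groups were compared with the quasi-likelihood test of edgeR over 13221 genes, and a gene was called when its Benjamini-Hochberg adjusted p was under 0.1. Of the 38 genes, 27 passed the filter on low counts, 15 were called higher, none was called lower and 12 passed neither way. Over all genes tested, 3.71% were called higher and 0.666% lower. At an unadjusted p under 0.05, 21 of the 27 were higher and 0 lower, beside 8.62% higher and 5.63% lower among all genes tested, and DESeq2 and limma also called 0 lower. However, 10 of the 15 called genes had no MS-5 only library at the filter's level of 0.370 CPM, passed it through co-culture alone and thus had to differ, so that counts and the median over the genes that passed are descriptions and lend no support. Over all 38 genes, all co-culture libraries lay above all MS-5 only libraries on the CPM scale for 25, below for 0, and the libraries overlapped for 13. Among the 27 that passed the filter these numbers were 22, 0 and 5, against 11.6% above and 9.6% below among all genes tested. As such a description, the median log2 fold change of the 27 genes was 4.45, also with Irf8 set at its bound given further on, beside -0.02 over all genes tested.

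The calls were close to the threshold. Adjusted p-values of the 15 genes ran from 0.0734 to 0.0875, and 0 of them passed 0.05, where edgeR called 2 genes in all. With any 1 MS-5 only library left out, 0 of the 38 genes were called (edgeR, in each of the 3 fits), while 12 were called without MC1, 10 without MC2 and 15 without MC3. DESeq2's Wald test and edgeR with a covariate for MO2 and MC3 each called 21, the 15 and also Fermt3, Lcp1, Lcp2, Mpo, Ptpn6 and Was.

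**Figure D1:**
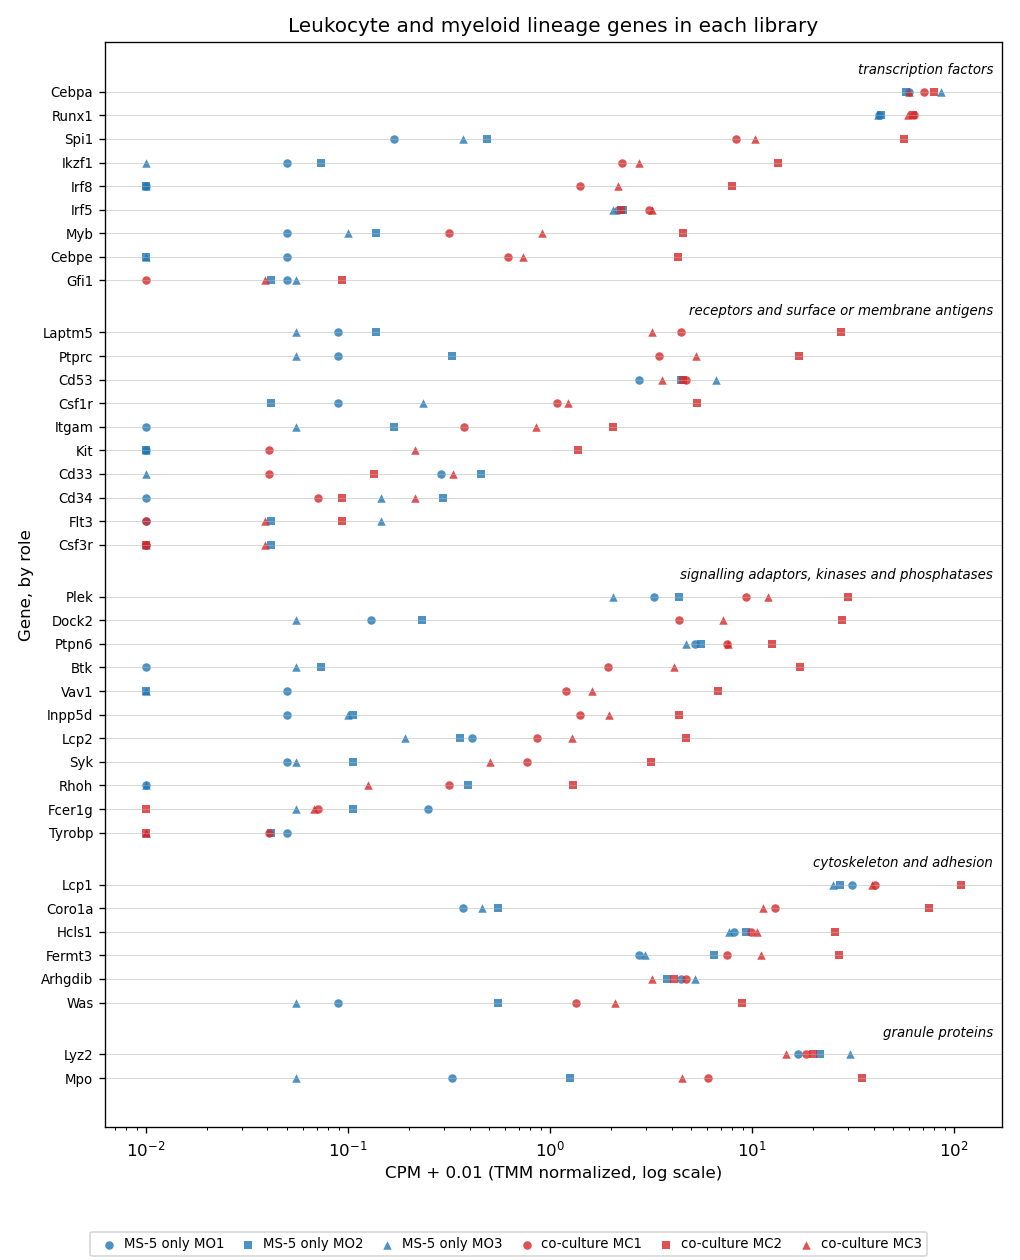
CPM of the 38 genes in each library on a log axis, ordered by role, with the 3 MS-5 only and the 3 co-culture libraries in different colours and 0.01 added to each value. For 25 genes all co-culture points lie to the right of all MS-5 only points, and MC2 is the highest co-culture point in 29.

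Among the transcription factors, 5 of 9 were called higher, and the 2 most abundant in MS-5 cells moved little. Spi1, which encodes the myeloid and B cell factor PU.1, had 4, 15 and 8 counts in MO1, MO2 and MO3 and 273, 1357 and 353 in MC1, MC2 and MC3. Its libraries did not overlap, and MC2 held more than MC1 and MC3 together. By edgeR its log2 fold change was 6.19 ± 1.01 (SE, n = 3 per group, adjusted p = 0.0734). Ikzf1, the lymphoid and myeloid zinc finger factor Ikaros, had 1, 2 and 0 counts against 74, 324 and 94, a log2 fold change of 7.20 ± 1.14 (edgeR adjusted p = 0.0734). With 3 counts in all in MS-5 only, its pooled ratio was 141 with a 95% counting interval of 48.0 to 687, and the fitted value depends on the prior count. Irf8, which directs monocyte and dendritic cell fates, was at 0 in every MS-5 only library and at 46, 191 and 74 counts in co-culture. Against a floor of 3 counts over the group it was at least 89.3-fold higher, or at least 46.8-fold without MC2, and edgeR gave an adjusted p of 0.0778. Cebpe, a factor of late granulocyte development, had 1, 0 and 0 counts against 20, 103 and 25. Its pooled ratio was 127 (95% counting interval 22.5 to 5068), with an edgeR adjusted p of 0.0809. Its call was lost without MC2 and by limma with a pseudocount of 0.5 or 1. All 4 of these genes were highest in MC2. Without MC2 the pooled ratio was 65.5 for Ikzf1 and 52.6 for Cebpe, and the log2 fold change was 4.76 for Spi1 and 5.91 for Ikzf1, and without MO2 that of Ikzf1 was 7.90. Intervals and floors cover counting error only.

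Runx1, the core-binding factor subunit needed for definitive haematopoiesis, had another pattern. MS-5 cells alone already held 1063, 1368 and 929 counts (42.7 ± 0.753 CPM, SD, n = 3), and co-culture held 2083, 1511 and 2028 (61.8 ± 2.42 CPM). The 3 co-culture libraries lay close together on the CPM scale, between 59.0 and 63.6, with MC2 in the middle. Its log2 fold change was 0.53 ± 0.11 (edgeR adjusted p = 0.0842), and it was not called with library size in place of TMM scaling, without a filter, with any 1 library left out, or by limma with a pseudocount of 0.1, 0.5 or 1 (adjusted p = 0.689, 0.701 and 0.707). DESeq2 called it. Cebpa, a factor of myeloid progenitors and also of fat cells, was the most abundant of the 38 genes in MS-5 cells, with 1500, 1810 and 1907 counts against 2330, 1913 and 2052 in co-culture. Its groups overlapped, with a log2 fold change of 0.04 ± 0.20 (edgeR adjusted p = 0.979). Irf5, an inducer of inflammatory cytokines, had 54, 72 and 45 counts against 101, 54 and 110, and overlapped too (log2 fold change 0.39 ± 0.28, edgeR adjusted p = 0.63). Myb, the progenitor factor, had 1, 4 and 2 counts against 10, 109 and 31 and did not pass the filter, and Gfi1, a repressor of granulocyte genes, had at most 2 counts in any library.

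Of the 10 receptors and surface or membrane antigens, 4 passed the filter and 3 were called higher, Laptm5, Ptprc and Csf1r. Laptm5, a lysosomal membrane protein of blood cells, had 2, 4 and 1 counts in MS-5 cells alone and 146, 661 and 110 in co-culture. Ptprc, the tyrosine phosphatase CD45 that is found on nucleated blood cells, had 2, 10 and 1 counts against 113, 410 and 182. In both genes the groups lay far apart and MC2 was highest. The log2 fold change was 6.98 ± 1.17 for Laptm5 and 5.73 ± 0.94 for Ptprc (edgeR adjusted p = 0.0734 for each). Without MC2 these values were 5.39 and 4.77, and without MO2 that of Ptprc was 6.97. Csf1r, the macrophage colony-stimulating factor receptor, had 2, 1 and 5 counts against 35, 129 and 42 (edgeR adjusted p = 0.0875) and lost its call without MC1, without MC2 and by limma with each of the 3 pseudocounts.

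The other receptors were at or close to the counting floor in MS-5 cells. Kit, the stem cell factor receptor, had no count in MS-5 only but 1, 33 and 7 in co-culture, at least 11.8-fold higher over the group, or 3.12-fold without MC2, which held most of the counts. Itgam, the integrin CD11b of myeloid cells, had 0, 5 and 1 counts against 12, 49 and 29. Neither passed the filter. Flt3 and Csf3r, receptors of early progenitors and of granulocytes, had at most 3 counts in any library, and Cd33 and Cd34, surface antigens of myeloid cells and of progenitors, had 0 to 14 counts in both groups with no separation between them. Cd53, a tetraspanin of leukocytes, was the exception in level: MS-5 cells alone had 69, 139 and 147 counts against 154, 109 and 123 in co-culture, and its groups overlapped (log2 fold change -0.11 ± 0.35, edgeR adjusted p = 0.964).

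Of the 11 signalling genes, 8 passed the filter, 5 of them with no MS-5 only library at its cutoff, and 6 were called higher. Plek, a pleckstrin homology protein of platelets and leukocytes, had 82, 137 and 45 counts in MS-5 cells alone and 307, 716 and 411 in co-culture (log2 fold change 2.39 ± 0.52, edgeR adjusted p = 0.0874). It was one of 2 called genes with more than 1 CPM in MS-5 cells, the other being Runx1, and like Runx1 it was not called with library size in place of TMM, without MC2, or by limma with any of the 3 pseudocounts. Dock2, a Rac exchange factor of migrating leukocytes, had 3, 7 and 1 counts against 142, 670 and 247 (6.54 ± 0.99, edgeR adjusted p = 0.0734). The Tec family kinase gene Btk had 0, 2 and 1 counts against 63, 416 and 141, a pooled ratio of 178 with a 95% counting interval of 60.6 to 865. Vav1, a guanine nucleotide exchange factor downstream of antigen receptors, had 1, 0 and 0 counts against 39, 164 and 55, with a pooled ratio of 222 (39.5 to 8809). Their fitted log2 fold changes, 7.52 ± 1.24 for Btk and 7.53 ± 1.25 for Vav1, rest on few MS-5 only counts and on the prior count (edgeR adjusted p = 0.0734 for each). By limma, Dock2 and Vav1 were not called with a pseudocount of 0.5 or 1, nor was Btk with 1. Without MC2 the pooled ratio was 79.6 for Btk and 110.0 for Vav1, and the log2 fold change was 1.72 for Plek, 5.36 for Dock2, 6.16 for Btk and 6.35 for Vav1. It was 7.20 for Dock2 and 8.22 for Btk without MO2, and 9.52 for Vav1 without MO1.

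A pair of genes that damp or start receptor signals were called as well. Inpp5d, the inositol phosphatase SHIP1, had 1, 3 and 2 counts against 46, 105 and 67 (edgeR adjusted p = 0.0734), and Syk, a kinase recruited to phosphorylated receptor tails, had 1, 3 and 1 against 25, 76 and 17 (edgeR adjusted p = 0.087). Syk was not called without MC1, without MC2 or by limma with a pseudocount of 0.5 or 1. Inpp5d was called in the fits without each co-culture library and by limma with each of the 3 pseudocounts. Ptpn6, the phosphatase SHP-1, was present in MS-5 cells with 130, 175 and 104 counts against 246, 301 and 261, which did not overlap but missed the threshold (log2 fold change 0.83 ± 0.26, edgeR adjusted p = 0.192). The adaptor gene Lcp2 (SLP-76), with 10, 11 and 4 counts against 28, 113 and 44, was not called either (edgeR adjusted p = 0.139). Rhoh, a GTPase of blood cells, had 0, 12 and 0 counts against 10, 31 and 4, with the MO2 count inside the co-culture range. The adaptors that pair with Fc and myeloid receptors were close to silent in both groups: Tyrobp had at most 1 count in any library, and Fcer1g had 6, 3 and 1 counts against 2, 0 and 2.

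All 6 cytoskeleton and adhesion genes passed the filter, and 1 was called by edgeR. Coro1a, the haematopoietic actin regulator coronin 1A, had 9, 17 and 10 counts in MS-5 cells alone and 425, 1815 and 389 in co-culture, and edgeR gave a log2 fold change of 6.18 ± 0.97 (adjusted p = 0.0734), or 4.73 without MC2. Lcp1, the actin bundler L-plastin, was already expressed in MS-5 cells, with 784, 854 and 553 counts against 1326, 2611 and 1342. Its co-culture libraries all lay above, MC1 and MC3 at 40.5 and 39.1 CPM and MC2 at 108.5 CPM against 25.1 to 31.3 CPM in MS-5 only, and the difference missed the threshold (1.17 ± 0.42, edgeR adjusted p = 0.263, and 0.51 without MC2). Hcls1, a cortactin relative of blood cells, behaved likewise with 204, 293 and 170 counts against 322, 621 and 365 (0.87 ± 0.39, edgeR adjusted p = 0.39, and 0.28 without MC2). Fermt3, the integrin activator kindlin-3, had 69, 204 and 65 counts against 247, 649 and 379 (1.89 ± 0.58, edgeR adjusted p = 0.183, and 1.18 without MC2). DESeq2 called it (adjusted p = 0.0182), as did edgeR with the covariate for MO2 and MC3 (0.0647). Was, the actin nucleation regulator WASP, had 2, 17 and 1 counts against 44, 215 and 72 (edgeR adjusted p = 0.141). It was called by DESeq2 (adjusted p = 0.00224), and by edgeR with that covariate (0.0527) and without a filter (0.0947). In Fermt3 and Was, MO2 held more than the other MS-5 only libraries. Arhgdib, a GDP dissociation inhibitor abundant in leukocytes, had 111, 119 and 115 counts against 154, 99 and 109 and overlapped (-0.16 ± 0.26, edgeR adjusted p = 0.89).

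Neither granule protein gene was called by edgeR on all 6 libraries with the filter, TMM and no covariate or block. The outcome for Mpo depended on the setting. It passed an unadjusted p under 0.05 and was called by DESeq2 and by limma on log2(TPM + 0.1), but not by limma with a pseudocount of 0.5 or 1. By edgeR it was called without a filter (adjusted p = 0.0664), with the covariate for MO2 and MC3 (0.0512) and without MC3 (0.0878). Mpo, the neutrophil and monocyte peroxidase, had 8, 39 and 1 counts in MS-5 cells alone and 198, 844 and 155 in co-culture. The co-culture libraries all lay above, and MO2 held most of the MS-5 only counts (log2 fold change 4.75, edgeR adjusted p = 0.121). It was 3.25 without MC2 and 6.29 without MO2. Lyz2, the lysozyme of macrophages and granulocytes, had 421, 681 and 671 counts against 606, 480 and 508, so that its groups overlapped (-0.37 ± 0.25, edgeR adjusted p = 0.6).

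The 11 genes with at least 1 CPM in MS-5 cells, Cebpa, Runx1, Irf5, Cd53, Plek, Ptpn6, Lcp1, Hcls1, Fermt3, Arhgdib and Lyz2, thus formed the level that MS-5 cells showed on their own. Per length, in TPM (counts per base of transcript, scaled to a common total), the order in MS-5 only was Cebpa (36.3 ± 7.68, SD, n = 3), Lyz2 (25.3 ± 8.31), Runx1 (18.7 ± 4.34), Lcp1 (11.3 ± 3.22), Hcls1 (5.93 ± 2.30), Arhgdib (5.52 ± 0.813), Cd53 (3.69 ± 1.56), Ptpn6 (3.45 ± 1.03), Fermt3 (2.29 ± 1.83), Irf5 (1.94 ± 0.983) and Plek (1.11 ± 0.657). The intervals of 1 SD around the means of neighbours in this order overlapped in every case. Within libraries, Cebpa lay above Lyz2, Runx1 above Lcp1, Lcp1 above Hcls1, Arhgdib above Cd53, Ptpn6 above Fermt3 and Irf5 above Plek in all 3, whereas the order of the other neighbours changed between libraries. In co-culture, TPM levels were led by Coro1a (88.5 ± 86.2) and Spi1 (50.3 ± 50.2), whose SDs were about as large as their means because MC2 stood at 187.9 and 107.9 TPM. Cebpa followed with 37.0 ± 5.64 TPM. The place of Spi1 rested on MC2, since it stood at 15.8 and 27.1 TPM in MC1 and MC3, below Cebpa (32.5 and 43.3) and Runx1 (23.9 and 31.7). Both leading levels also rested on short transcripts. In MC2, Spi1-203 (402 bases) held 86.8 TPM, and Coro1a-211 and Coro1a-212 (520 and 739 bases) held 121.4 and 64.9 TPM. By co-culture counts, Cebpa (6295), Runx1 (5622) and Lcp1 (5278) lay above Coro1a (2629) and Spi1 (1983).

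MC2 was the highest co-culture library for 29 of the 38 genes, but how far it stood above the others varied. The excess of a library is its CPM less the MS-5 only mean, and for each gene a ratio was taken of the excess in MC2 to that of MC1 and MC3 on average. Among the 15 called genes this ratio had a median of 5.08 and was over 3 for 13, or 86.7%, and among all 491 genes called higher it had a median of 5.98 and was over 3 for 373, or 76.0%. The exceptions among the 15 were Runx1 (1.08) and Inpp5d (2.68). Over the 19 genes under 1 CPM in MS-5 only with all co-culture libraries above, the ratio ran from 2.68 to 11.7 with a median of 5.79. The order of these 19 genes by excess was alike in the 3 libraries, with a Spearman correlation of 0.926 for MC1 and MC2, 0.937 for MC1 and MC3 and 0.942 for MC2 and MC3, given as a description over genes that share libraries. MC2 was also a co-culture library of the lowest total count, and the part of any 1 cause in its excess was not tested.

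**Figure D2:**
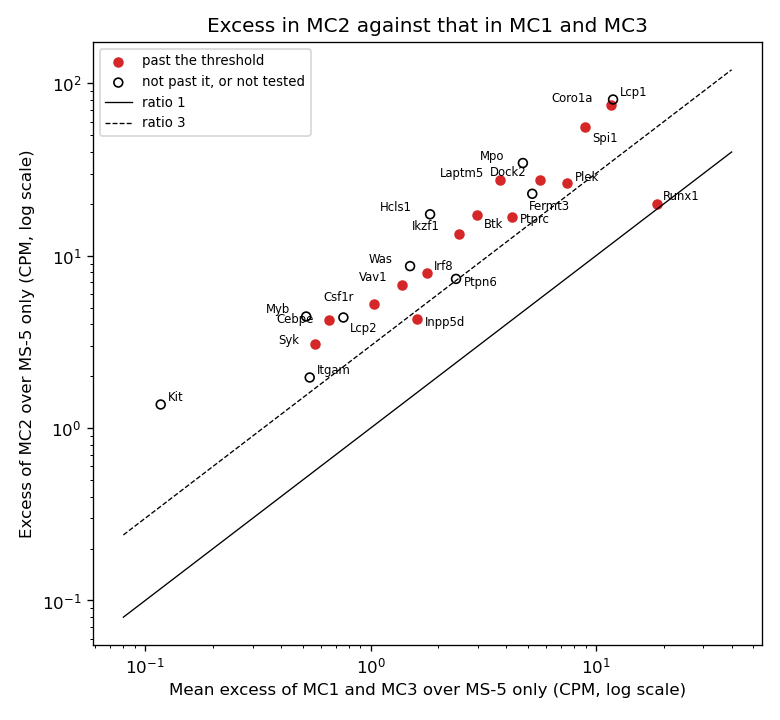
Excess over the MS-5 only mean in MC2 against the mean excess in MC1 and MC3, both in CPM on log axes, for the 25 genes with all co-culture libraries above, filled where the gene was called, with lines at ratios of 1 and 3. Most points lie along or above the line at 3, and Runx1 lies near the line at 1.

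The counts of a gene come from its transcripts, and 210 transcripts of the 38 genes were in the deposited files, 126 of them annotated as protein coding and 46 as retained intron. In MS-5 only 97.7% to 99.2% of these genes' counts lay on protein-coding transcripts and 0.401% to 1.30% on retained-intron transcripts. In MC1, MC2 and MC3 the protein-coding share was 95.1%, 88.9% and 94.7% and the retained-intron share 3.16%, 7.12% and 3.19%, so that the co-culture libraries lay outside the MS-5 only range and MC2 farthest. The retained-intron counts in co-culture lay mostly on Coro1a-211, with 204.1, 940.7 and 185.9 counts in MC1, MC2 and MC3. Hcls1-203, annotated to undergo nonsense-mediated decay, had 90.7, 489.9 and 127.4. The shift of these shares thus rested largely on few transcripts and does not describe the 38 genes alike. Among the 27 genes under 1 CPM in MS-5 only, whose MS-5 only counts were few, the retained-intron share was 8.32% to 23.7% in MS-5 only against 10.8% to 14.4% in co-culture. A count on a short transcript does not show that this transcript was made, since most stretches of 31 bases, the default word by which kallisto matches reads, are shared with other transcripts of the same gene.

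Transcripts were followed for the 8 genes with the most co-culture counts. Hcls1-201, a protein-coding transcript of 2016 bases, had 204.0, 290.8 and 168.9 estimated counts without SKM-1 and 229.8, 131.1 and 230.2 in co-culture. Scaled to depth these were 8.14, 9.26 and 7.65 CPM against 7.01, 5.45 and 6.70 CPM, so the co-culture libraries all lay below. Hcls1-203, of 945 bases and annotated to undergo nonsense-mediated decay, was at 0 in every MS-5 only library and at 90.7, 489.9 and 127.4 in co-culture, at 54.1% of the co-culture counts. Of its words of 31 bases, 97.0% also occur in other transcripts of Hcls1. For Lcp1, Lcp1-206 (3594 bases) had 550.1, 408.0 and 276.3 counts against 690.1, 398.9 and 598.0, while Lcp1-202 (2523 bases) had 78.8, 51.5 and 37.6 against 393.2, 2011 and 495.1. On the CPM scale Lcp1-206 overlapped between the groups, while Hcls1-203 and Lcp1-202 were higher in every co-culture library and highest in MC2. No test was run on single transcripts.

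Plek also divided between its long forms. Plek-201 had 35.2, 0 and 34.1 counts against 159.0, 664.6 and 206.7, and Plek-202 had 47.0, 137.0 and 11.3 against 147.8, 51.5 and 204.1. MC2 was the highest co-culture library for Plek-201 and the lowest for Plek-202. By contrast, Runx1 kept 3 transcripts at near equal shares of the co-culture counts, 34.2%, 32.9% and 31.7%, Cebpa-201 carried 78.0% of the counts of Cebpa, and Lyz2 has 1 transcript.

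Coro1a and Spi1 were carried in part by short transcripts. Coro1a-211, a retained-intron transcript of 520 bases, held 50.6% of the co-culture counts and Coro1a-212, of 739 bases, held 45.8%, whereas the longest transcript with a count, Coro1a-201 of 1660 bases, held 2.33%. Spi1-201 (2034 bases) held 69.3% and Spi1-203 (402 bases) 30.6%, with 192.2, 919.5 and 261.8 counts on the former in co-culture and 80.8, 437.5 and 89.2 on the latter. The same transcripts led in MS-5 only, Coro1a-211 with 45.4% of 36 counts and Spi1-201 with 68.0% of 27. Coro1a-212 had 0.89 counts there. Outside these 8 genes, chosen after the values were seen, Laptm5-210 (723 bases) held 98.6% of the co-culture counts of Laptm5, and Ptpn6-204, a retained-intron transcript of 421 bases, had 0, 0 and 2.78 counts in MO1, MO2 and MO3 and 30.5, 114.2 and 55.7 in co-culture. In contrast, Btk-201 (97.5%), Dock2-201 (92.4%), Ptprc-204 (96.0%), Vav1-203 (100%) and Mpo-203 (100%) are protein-coding transcripts that carried nearly all counts of their genes.

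**Figure D3:**
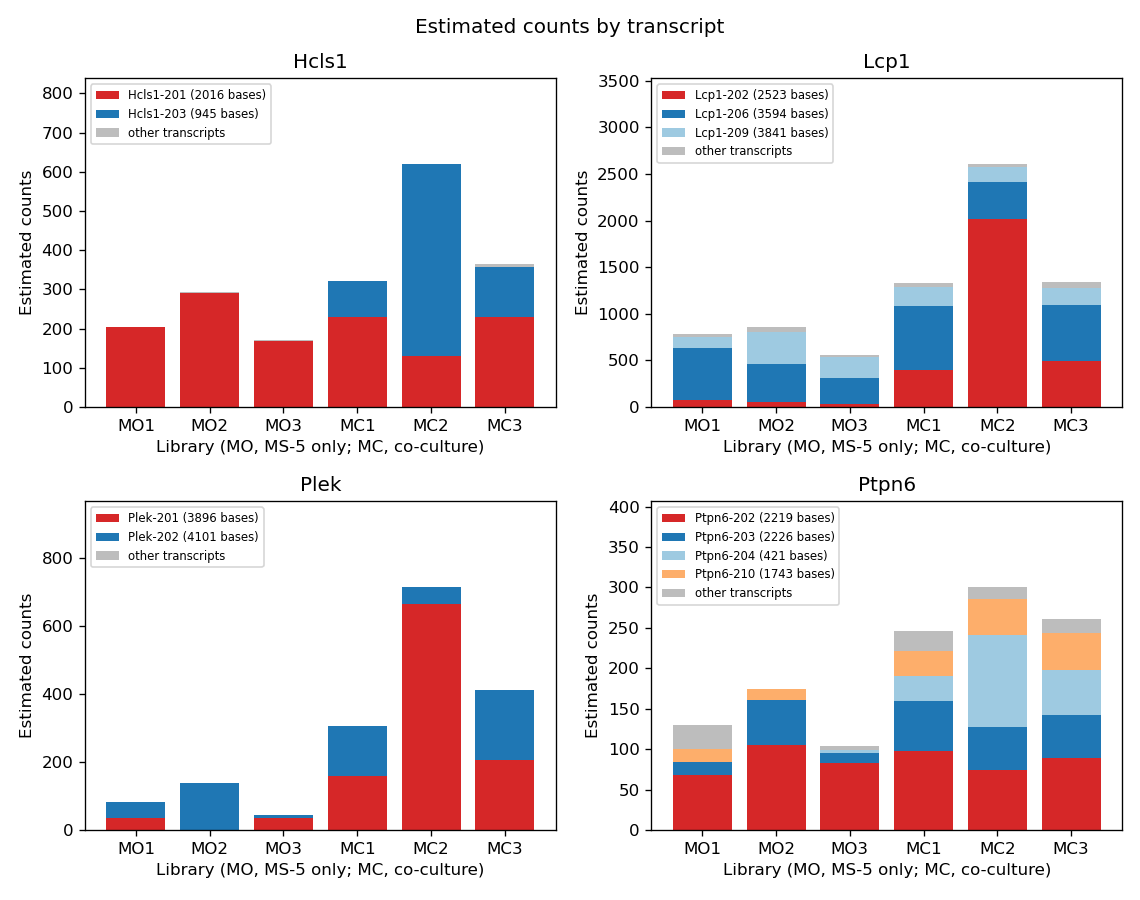
Estimated counts in each library, stacked by transcript, for Hcls1, Lcp1, Plek and Ptpn6, with transcripts under 10% of the co-culture counts joined as other transcripts and counts on linear axes from 0. Hcls1-203 and Lcp1-202 are highest in MC2. The axes show counts before scaling to depth.

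Reads are matched to whole transcripts, coding and noncoding bases alike. From 4 short transcripts that carried co-culture counts, 1 coding exon each is shown as an example of the sequence concerned. They come from the GENCODE M21 transcripts (GRCm38), read 5′ to 3′ on the strand of the gene, and the capitals mark the first word of 31 bases. The exons are exon 1 of 5 of Coro1a-212 at chr7:126702976-126703173 (minus strand, 198 bases), exon 4 of 8 of Laptm5-210 at chr4:130928637-130928762 (plus strand, 126 bases), exon 3 of 9 of Hcls1-203 at chr16:36946594-36946723 (plus strand, 130 bases) and exon 2 of 3 of Spi1-203 at chr2:91099400-91099526 (plus strand, 127 bases).
Coro1a-212: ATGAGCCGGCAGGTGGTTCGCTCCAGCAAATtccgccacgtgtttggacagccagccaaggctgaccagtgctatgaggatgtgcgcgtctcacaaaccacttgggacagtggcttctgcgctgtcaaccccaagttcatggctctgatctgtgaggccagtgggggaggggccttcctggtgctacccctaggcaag
Laptm5-210: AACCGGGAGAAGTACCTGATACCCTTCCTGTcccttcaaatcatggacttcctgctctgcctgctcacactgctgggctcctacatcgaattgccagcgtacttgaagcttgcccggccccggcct
Hcls1-203: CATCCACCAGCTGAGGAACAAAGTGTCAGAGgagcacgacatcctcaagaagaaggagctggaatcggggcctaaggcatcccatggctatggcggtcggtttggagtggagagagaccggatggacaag
Spi1-203: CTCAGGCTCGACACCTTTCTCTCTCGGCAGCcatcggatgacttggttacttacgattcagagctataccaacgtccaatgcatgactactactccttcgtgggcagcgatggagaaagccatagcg
A read needs no mismatch over such a word to be placed by it, whichever species it came from. These 4 genes had 7 to 667 counts in all in MS-5 only but 917 to 2629 in co-culture.

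Some genes share sequence or overlap with others, which limits what their counts say. Lcp1 shares words of 31 bases with the processed pseudogenes Gm7823 and Gm6201. Gm7823 had 0, 10 and 2 counts in MS-5 cells alone and 460, 2004 and 440 in co-culture, and Gm6201 had 0, 0 and 0 against 32, 120 and 27, both highest in MC2 like Lcp1 itself. Itgam shares 67.2% of its words with Gm49368, which had no count in co-culture, and Lyz2 shares 32.8% with Lyz1, which had at most 2 counts in any library. Exons of Csf1r overlap Hmgxb3 on the opposite strand over 873 bases and those of Irf5 overlap Tnpo3 over 411 bases. However, Csf1r-201, with 100% of the co-culture counts of Csf1r, shares 0.0% of its words with other genes. Irf5-202, with 81.1% of those of Irf5, also shares 0.0%, and Irf5-205, with 18.9%, shares 13.5%. The library kit keeps strand, but how the strand was used in counting is not given in the sources used here.

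Promoter windows from RefSeq (GRCm38.p6), 250 bases before to 50 after a gene's start, matched 34 of the 38 genes, with 45 windows. The letters GAGGAA, a core bound by the ETS factor PU.1, occurred on either strand in 18 of the 34 genes, and in 31.3% of all 27025 genes with a window. The longer GAGGAAGT, which contains it, occurred in 4 of 34 genes against 3.69% of all genes, and TGTGGT, the core bound by Runx1, in 8 of 34 against 18.9%. The 4 windows with GAGGAAGT are those of Inpp5d (chr1:87620062-87620361, plus strand), Cd53 (chr3:106790100-106790399, minus strand), Mpo (chr11:87793534-87793833, plus strand) and Vav1 (chr17:57278850-57279149, plus strand). They are shown because Inpp5d and Vav1 were called, Mpo lay above without a call and Cd53 overlapped, with GAGGAA and GAGGAAGT in capitals in the reading of either strand.
Inpp5d: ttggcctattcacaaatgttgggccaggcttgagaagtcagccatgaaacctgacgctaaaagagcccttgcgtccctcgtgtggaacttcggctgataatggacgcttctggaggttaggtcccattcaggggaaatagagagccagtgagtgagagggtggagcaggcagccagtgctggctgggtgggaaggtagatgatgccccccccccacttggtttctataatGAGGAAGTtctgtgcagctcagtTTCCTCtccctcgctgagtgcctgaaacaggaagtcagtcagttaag
Cd53: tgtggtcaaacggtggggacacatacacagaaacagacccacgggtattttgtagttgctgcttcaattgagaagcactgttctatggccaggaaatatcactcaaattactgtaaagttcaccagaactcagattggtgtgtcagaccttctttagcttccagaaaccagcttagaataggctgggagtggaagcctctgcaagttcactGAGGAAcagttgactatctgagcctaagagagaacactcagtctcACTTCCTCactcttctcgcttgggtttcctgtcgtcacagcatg
Mpo: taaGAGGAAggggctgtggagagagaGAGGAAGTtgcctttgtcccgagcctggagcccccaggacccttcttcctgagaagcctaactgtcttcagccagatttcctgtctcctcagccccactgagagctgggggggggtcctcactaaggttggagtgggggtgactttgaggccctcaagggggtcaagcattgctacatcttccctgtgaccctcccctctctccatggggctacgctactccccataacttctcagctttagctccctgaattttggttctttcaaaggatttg
Vav1: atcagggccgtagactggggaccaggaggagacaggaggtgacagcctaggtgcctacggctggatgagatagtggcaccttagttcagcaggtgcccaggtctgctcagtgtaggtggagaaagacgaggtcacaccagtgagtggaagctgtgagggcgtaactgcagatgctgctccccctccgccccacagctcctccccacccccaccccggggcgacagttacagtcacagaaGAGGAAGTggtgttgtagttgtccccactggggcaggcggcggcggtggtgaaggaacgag
A match of letters is a description, not a bound site.

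Leukocyte genes outside the list were examined as well, and differed less uniformly. Of 59 other leukocyte genes, 38 passed the filter, 14 were called higher and 1 lower, beside 3.71% and 0.666% over all genes, and all 14 passed the filter with no MS-5 only library at its level. At an unadjusted p under 0.05, 22 were higher and 3 lower, and DESeq2 called 20 higher and 2 lower. As a description, the median log2 fold change of those that passed was 1.46, against 4.45 for the lineage genes. Rac2, the haematopoietic Rac GTPase, had 5, 7 and 1 counts against 121, 470 and 128 (edgeR adjusted p = 0.0734). Prtn3, a granule serine protease, was not highest in MC2, with 4, 7 and 3 counts against 31, 17 and 32 (edgeR adjusted p = 0.0742). Evi2a, a membrane protein gene of blood cells, was called lower with 376, 500 and 339 counts against 314, 197 and 310 (log2 fold change -0.79 ± 0.14, edgeR adjusted p = 0.0734). The 3 with the most co-culture counts, Fyb, Il3ra and Fes, overlapped between groups and were not called. The summed level of the 59 genes was 192.3 to 223.9 CPM in MS-5 only and 230.0, 419.1 and 259.5 CPM in MC1, MC2 and MC3.

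Markers of other blood and vessel cell types were examined in the same libraries. Of 8 macrophage markers, 2 passed the filter and 1 was called higher by edgeR and by DESeq2, and none by limma on log2(TPM + 0.5). The called marker passed the filter through co-culture alone, and MC2 was its highest library. Among the others, Cd68 had 272, 601 and 422 counts against 362, 283 and 549, Adgre1 had 14, 0 and 0 against 0, 0 and 0, and C1qa, C1qb and C1qc had no count in any library. None of 8 T cell, 8 B cell, 9 erythroid and megakaryocyte and 6 endothelial markers was called by edgeR, with 3, 1, 3 and 2 of them passing the filter. At an unadjusted p under 0.05, 0, 0, 0 and 1 of them were higher, DESeq2 called the same numbers and limma called 0. The exception was Pecam1, an endothelial and leukocyte adhesion molecule, with 18, 30 and 18 counts against 86, 186 and 38. Summed levels were 2.83 to 7.45 CPM in MS-5 only against 2.93 to 6.43 CPM in co-culture for the T cell list, 51.0 to 100.7 against 55.8 to 81.5 CPM for the B cell list, led by Ebf1, and 11.5 to 19.2 against 12.1 to 17.1 CPM for the macrophage list, led by Cd68. The erythroid and megakaryocyte list, led by Itga2b, stood at 17.8 to 27.0 against 21.8 to 28.9 CPM, and the endothelial list at 1.13 to 1.84 against 2.10 to 8.89 CPM. None of the 15 stromal markers was called by edgeR, DESeq2 or limma (0 each), with 1 at an unadjusted p under 0.05, and Fn1, Col1a1 and Cxcl12 overlapped between groups.

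**Figure D4:**
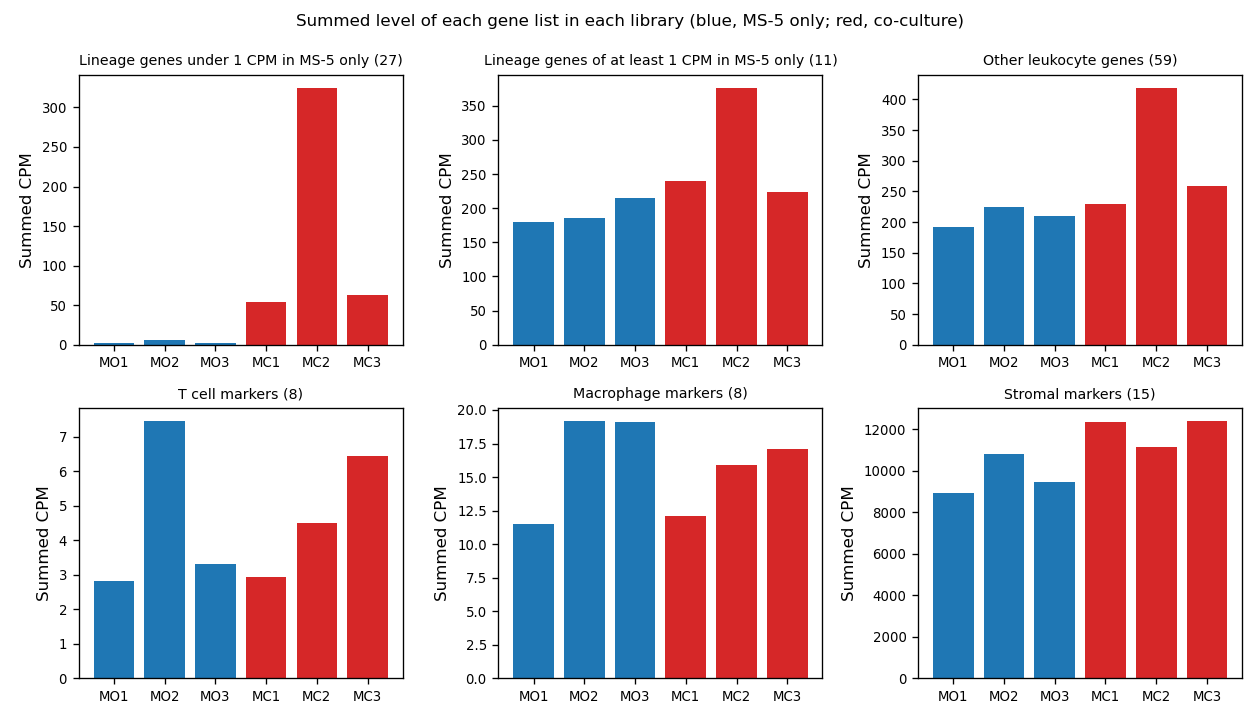
Bars of the summed CPM of 6 gene lists in each library, on linear axes from 0 that differ between panels, with MS-5 only libraries in blue and co-culture libraries in red. The genes under 1 CPM in MS-5 only lie at 2.13 to 5.79 CPM in MS-5 only but at 53.6 to 325.0 CPM in co-culture, while the sums of the T cell list and of the macrophage list, the latter mostly Cd68, overlap between groups. Of the macrophage markers, 1 was called higher.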

How the data were processed

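RNA-seq libraries of MS-5 cells alone and after co-culture with SKM-1 cells, 3 of each, were grouped by their titles. Per the labels and methods, stranded mRNA libraries were checked with FastQC 0.11.7 and quantified with kallisto 0.43.0 on a GRCm38 mouse cDNA index, and the authors tested genes with sleuth 0.30.0. For every transcript in each library the authors deposited its estimated count, its TPM and its length in bases, unfiltered and with no pooling. TPM are counts per effective length, scaled to 1 total in all libraries. Word length and strand setting are not given in the sources used here. Of 118489 transcripts, 116728 matched GENCODE M21, and the other 1761 (0.477% to 0.562% of a library's counts) were left out.

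Estimated counts were summed per gene, rounded, filtered with filterByExpr (13221 of 35968 genes left), scaled by TMM (factors 0.923 to 1.17) and tested with edgeR 4.0.16 in R 4.3.3, with Benjamini-Hochberg adjustment over all genes tested and a threshold of 0.1. SEs were taken as the log2 fold change over the root of the F statistic. Ratios for genes with 1 to 3 MS-5 only counts carry exact 95% counting intervals. On simulated counts for these 13221 genes, edgeR recovered 151 of 200 genes given a log2 change of 2. DESeq2 1.42.0, limma 3.58.1 on log2(TPM + 0.5), other filters, scalings and thresholds, a replicate block, a covariate for MO2 and MC3 and leaving out libraries were tried. All 38 genes are accounted for by role. Within each role, values per library are given at least for the 3 genes with the most co-culture counts and for genes of at least 1 CPM in MS-5 only. Log2 fold changes are given for the latter and the 10 called genes with the largest change, except that Irf8 has a bound and Cebpe a pooled ratio instead. The genes and lists were chosen with earlier results of these data known. A few results are not reported here.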

Additional observations from a re-analysis of the deposited data

How the results depend on the processing

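Over all genes, 579 were called by edgeR at 0.1, against 1268 by DESeq2's Wald test, 506, 356 and 224 by limma on log2(TPM + 0.1), log2(TPM + 0.5) and log2(TPM + 1), 3999 with MO2 and MC3 as a covariate, and 2 and 0 at thresholds of 0.05 and 0.01. Leaving out MO2 and MC3 together, chosen after seeing the data, gave 1702. Leaving out 1 library gave 0 to 549. Of the 38 genes, the 15 called higher became 14, 8 and 6 under limma with pseudocounts of 0.1, 0.5 and 1, 0 at both stricter thresholds and 0 to 15 with 1 library left out, and 21 under DESeq2's test and under the covariate. The 14 other leukocyte genes called higher became 12, 7 and 2 under limma with those pseudocounts, 23 with the covariate, 0 at both thresholds and 0 to 13 with 1 library left out. DESeq2's size factors and the filter of 5 counts in 3 libraries left the 15 called genes the same. Without a filter Runx1 was not called, and Myb, Mpo and Was were. No setting called any of the 38 genes lower. The causes of these changes were not tested.

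Same-numbered libraries did not all deviate together. The correlation was 0.532 for MO1 and MC1, but -0.291 for MO2 and MC2 and -0.516 for MO3 and MC3, so the numbers were not taken as pairs. With the replicate block, 444 genes, 16 of the 38 and 12 other leukocyte genes were called. The 16 hold 13 of the 15, without Csf1r and Runx1 (adjusted p = 0.184 and 0.417), and also Mpo, Was and Fermt3 (0.0131, 0.0197 and 0.0336).

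Directions changed only for genes that were not called. The log2 value of Irf5 was -0.0058, -0.0050 and -0.0061 under limma with pseudocounts of 0.5, 0.1 and 1. With 1 library left out, that of Cebpa ran from -0.066 to 0.25 and was below 0 without MO1, MO2 or MC2 (-0.015, -0.066 and -0.060). That of Cd53 ran from -0.35 to 0.25 and was above 0 without MO3 or MC3 (0.25 and 0.0014). Depth limits the 11 genes that did not pass the filter, 7 of which had at most 15 counts in every library.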
